A study of Bos taurus with 16 samples.

Results

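The genes of phosphatidylcholine synthesis and choline oxidation were taken to be PEMT, CHKA, CHKB, PCYT1A, PCYT1B, PCYT2, CHPT1, CEPT1, ETNK1 and CHDH. These 10 genes were looked up by symbol among the 22358 loci counted in 16 pools of bovine blastocysts, and 9 of them were listed, each at 1 locus. No row bore the name CHKB, which was not analysed here. Of the 9 listed genes, 5 passed the filter on low counts (counts per 1000000 counts of the pool, CPM, that sum to at least 15 over the pools compared) and were among the 10519 loci tested, namely CHKA, PCYT1A, CEPT1, ETNK1 and PCYT2. The 4 that did not pass were PEMT, PCYT1B, CHPT1 and CHDH, with summed CPM of 4.86, 2.44, 4.11 and 0.546. The question put to the data was how the SAM-dependent route and the CDP-choline route compared between embryos of cows that differed in dietary methionine.

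Phosphatidylcholine, the most abundant phospholipid of mammalian membranes, is made by 2 routes that meet at the same product. In the CDP-choline route, choline is phosphorylated by the choline kinases CHKA and CHKB, activated by the cytidylyl transferases PCYT1A and PCYT1B, and joined to diacylglycerol by the phosphotransferases CHPT1 and CEPT1. In the other route PEMT methylates phosphatidylethanolamine in successive steps, each of which uses S-adenosylmethionine (SAM), the methyl donor made from methionine. Phosphatidylethanolamine comes in part from a parallel ethanolamine branch, with ETNK1 as kinase, PCYT2 as cytidylyl transferase and CEPT1 as a phosphotransferase that serves both branches. CHDH begins the oxidation of choline to betaine, which can return a methyl group to homocysteine and so to methionine. PEMT and CHDH are best known from the liver.

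The embryos came from 8 lactating Holstein cows, 4 on a control diet and 4 on a methionine-rich diet, which was the same ration with rumen-protected methionine added, fed from calving until the embryos were collected. The cows had been chosen for the number and quality of their embryos. They were superovulated and inseminated, expanded blastocysts were flushed from the uterus, and each cow gave 2 pools of embryos. The GEO labels call the tissue IVF embryos, whereas the methods of the study describe insemination and flushing. RNA of each pool, from very few embryos, was linearly amplified in several rounds before sequencing. The pools are named here by treatment, cow and pool, so that Methionine 8.2 is the second pool of cow 8. Methionine-rich pools tended to hold more embryos than control pools in the listing that accompanies the study, although the numbers overlapped. Embryo number was thus partly confounded with diet, and its part in the values was not tested. In that listing the 2 pools of cow 8 had the lowest concentrations of amplified RNA. The lowest of the RNA quality numbers given were those of methionine-rich pools. The part of RNA concentration and quality in the values was not tested.

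Total counts ranged from 5624126 to 7826542 in 15 pools, and a floor of 3 counts corresponded to between 0.383 and 0.533 CPM in them. Pool Control 3.2 had 1745048 counts and was left out of the main comparison, leaving 7 control and 8 methionine-rich pools. The paper left out this pool too, since few of its uniquely mapped reads fell on annotated exons. It proposes an error in library preparation as a possible reason. The total reads listed in the paper for this pool lie within the range of the other pools. Pool Control 2.1 stood apart by its leukocyte transcripts. The 12 loci found for the leukocyte markers summed to 2489 CPM there and to at most 31.5 CPM in each of the other 14 pools. CD3E was at 0 throughout. PTPRC was highest in Methionine 8.1, at 6.68 CPM, and CD14 in Control 2.2, at 13.0 CPM, whereas the other loci were highest in Control 2.1. Of the trophectoderm markers, KRT18 (1757 CPM or more), GATA2 (284 or more), GATA3, TFAP2C, TEAD4 and KRT8 were present in all 15 pools. CDX2 had a minimum of 0 and a median of 1.96 CPM, IFNT2 a minimum of 0, and ELF5 and TFAP2A a median of 0. TKDP1 reached 1.81 CPM at most. Of the inner cell mass markers, POU5F1 (11.2 or more), SOX2, KLF4, SALL4 and LIN28A were present in all 15 pools, whereas NANOG fell to 0.165 CPM. Of the hypoblast markers, GATA6 (40.9 or more) and PDGFRA were present in all 15 pools. HNF4A had a median of 0.81 CPM, GATA4 reached 0.413 CPM at most and SOX17 was at 0. The liver genes ALB, APOA1 and TTR summed to between 0 and 4.62 CPM per pool. In pools of whole embryos, fewer cells of a type and less RNA per cell cannot be told apart.

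**Figure D1:**
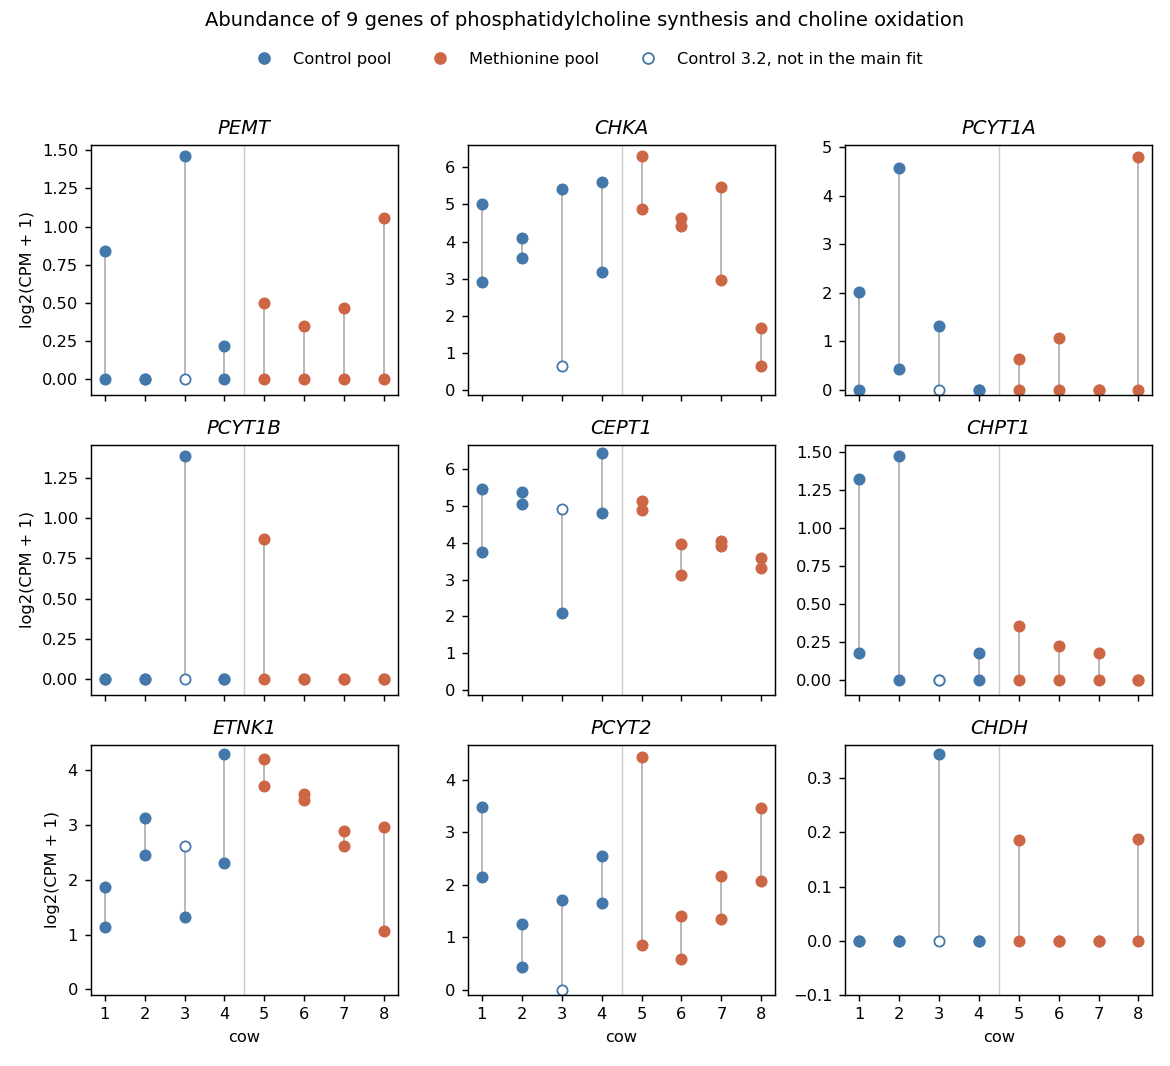
Abundance of the 9 listed genes, as log2(CPM + 1) on the vertical axes, which differ between panels, in the 2 pools of each cow (horizontal axis), with the pools of a cow joined by a line. Control cows are 1 to 4 and methionine-rich cows 5 to 8, and in no panel do the cow means of the treatments separate.

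PEMT transcripts were near the floor of detection in both treatments. The gene (XLOC_008096) had 36 counts over the 15 pools, 20 in control and 16 in methionine-rich pools. Among control pools it had 13 counts in Control 3.1, 6 in Control 1.1, 1 in Control 4.1 and 0 in the remaining 4, and the highest value was 1.75 CPM. Among methionine-rich pools it had 8 counts in Methionine 8.2, 3 each in Methionine 5.1 and 7.1, 2 in Methionine 6.1 and 0 in the remaining 4, with a highest value of 1.08 CPM. The median was 0 CPM in control and 0.136 CPM in methionine-rich pools, so that the ranges overlapped fully at this depth. Of the 7 cows with both pools in the comparison, 6 had a PEMT count in 1 pool only and none had it in both.

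Averaged over the pools of a cow, PEMT differed by -0.20 on the log2(CPM + 1) scale, methionine-rich minus control, with an SE of 0.34 (n = 4 and 4 cows, exact permutation test, two-sided, p = 0.8). The smallest p this design of 70 assignments allows is 0.0286. The sign turned to 0.12 without cow 3, which holds pool Control 3.1. As a ratio of summed counts per total, methionine-rich over control was 0.667, with an exact 95% interval from 0.323 to 1.35 that covers counting error alone.

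CHKA, the first enzyme of the CDP-choline route, was found in all 15 pools and varied widely among them. In control pools it (XLOC_014429) ranged from 6.45 CPM in Control 1.2 to 47.3 CPM in Control 4.1, with a median of 16.2. In methionine-rich pools it ranged from 0.557 CPM in Methionine 8.1 to 78.9 CPM in Methionine 5.2, with a median of 22.2. The lowest 2 values of all 15 were those of the 2 pools of cow 8, at 4 and 16 counts, so that the methionine-rich pools held both the lowest and the highest values. These 2 pools also had the lowest concentrations of amplified RNA, whose part in the values was not tested. The log2 fold change, methionine-rich over control, was 0.04 by edgeR's exact test (FDR = 1), and 0.999 was the FDR by edgeR's quasi-likelihood test. By limma's voom with cow as random effect it was -0.50 with an SE of 0.81 and a 95% interval from -2.19 to 1.20.

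PCYT1A encodes the cytidylyl transferase commonly described as the rate-limiting step of the CDP-choline route. Its counts (XLOC_000618) were confined to few pools in both treatments. Control 2.2 had 146 counts (22.6 CPM), Control 1.1 had 23, Control 3.1 had 11, Control 2.1 had 2, and the other 3 control pools had 0. Methionine 8.2 had 199 counts (26.9 CPM), Methionine 6.1 had 8, Methionine 5.1 had 4, and the other 5 methionine-rich pools had 0. Single pools thus supplied 146 of 182 control counts and 199 of 211 methionine-rich counts, and in both cases the other pool of the same cow had at most 2 counts.

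The PCYT1A fold change rested on these libraries. It was 0.17 (log2) by edgeR's exact test, with an FDR of 1 (0.999 by the quasi-likelihood test), and -1.07 with an SE of 1.52 by voom with cow as random effect, with a 95% interval from -4.22 to 2.09. It fell to -3.67 without cow 8 (FDR = 0.715) and rose to 2.01 without cow 2. The difference of cow means was -0.39 with an SE of 0.75 (exact permutation test, p = 0.6).

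The second cytidylyl transferase gene, PCYT1B (XLOC_021735), had 12 counts in Control 3.1, 6 in Methionine 5.1 and 0 in the other 13 pools. The counts of 0 allow up to 3 counts, or at most 0.533 CPM, in each of those pools, a limit that covers counting error alone and not loss in amplification. Both pools with PCYT1B also held PCYT1A, at 11 and 4 counts. With a minimum of 3 counts, a choline cytidylyl transferase was therefore found in 6 of 15 pools, 3 control and 3 methionine-rich.

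CEPT1, the choline/ethanolamine phosphotransferase that completes both branches, was found in every pool and had the lower median in methionine-rich embryos. Control pools ranged from 3.23 CPM in Control 3.1 to 86.1 CPM in Control 4.2, with a median of 32.03, and methionine-rich pools from 7.77 CPM in Methionine 6.1 to 34.6 CPM in Methionine 5.2, with a median of 14.3. The 8 methionine-rich values lay inside the range of the control pools, and both pools of cow 5 overlapped the middle of it. The log2 fold change (XLOC_015684) was -1.08 by edgeR's exact test with an FDR of 0.585 (0.577 by the quasi-likelihood test). The gene was the single tested member with an unadjusted p under 0.05, a mark that 8.54% of all loci tested reached. DESeq2 gave -1.08 with an SE of 0.51, and voom with cow as random effect gave -0.68 with an SE of 0.59 (95% interval -1.90 to 0.54).

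The CEPT1 difference between cows moved with single cows. The cow means differed by -0.38 with an SE of 0.87 (exact permutation test, p = 0.714), since cow 3, with 3.23 CPM in its single pool compared, was the lowest of the 8 cows. That difference was 0.03 without cow 4 and -1.15 without cow 3 (exact permutation test, p = 0.0857). In the listing that accompanies the study, the pools of cow 4 held fewer embryos than the other control pools. The part of embryo number in the CEPT1 values was not tested. The pool left out, Control 3.2, comes from cow 3 and had 51 CEPT1 counts, or 29.2 CPM. Its inclusion moved the difference of cow means to -0.74 (exact permutation test, p = 0.257). The part of this pool's low share of reads on annotated exons in that shift was not tested. The fold change by the exact test stayed between -1.47 and -0.70 when each cow was left out in turn, with an FDR of 0.305 or more.

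CHPT1, the phosphotransferase specific for choline, had 26 counts (XLOC_017110). Control 1.2 and Control 2.1 had 10 counts each, Control 1.1 and 4.2 had 1 each and the other control pools 0. No methionine-rich pool had more than 2 counts, and 5 of the 8 had 0. The 2 pools with 10 counts reached 1.5 and 1.78 CPM, and the second of these is the pool with 2489 CPM of leukocyte markers, whose part in the value was not tested. The ratio of summed counts, 22 against 4, was 0.152 with an exact 95% interval from 0.038 to 0.446, which covers counting error alone and not the spread between pools. Between cows the difference was -0.30 with an SE of 0.21 (log2(CPM + 1), exact permutation test, p = 0.343), and -0.12 without pool Control 2.1 (exact permutation test, p = 0.886).

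**Figure D2:**
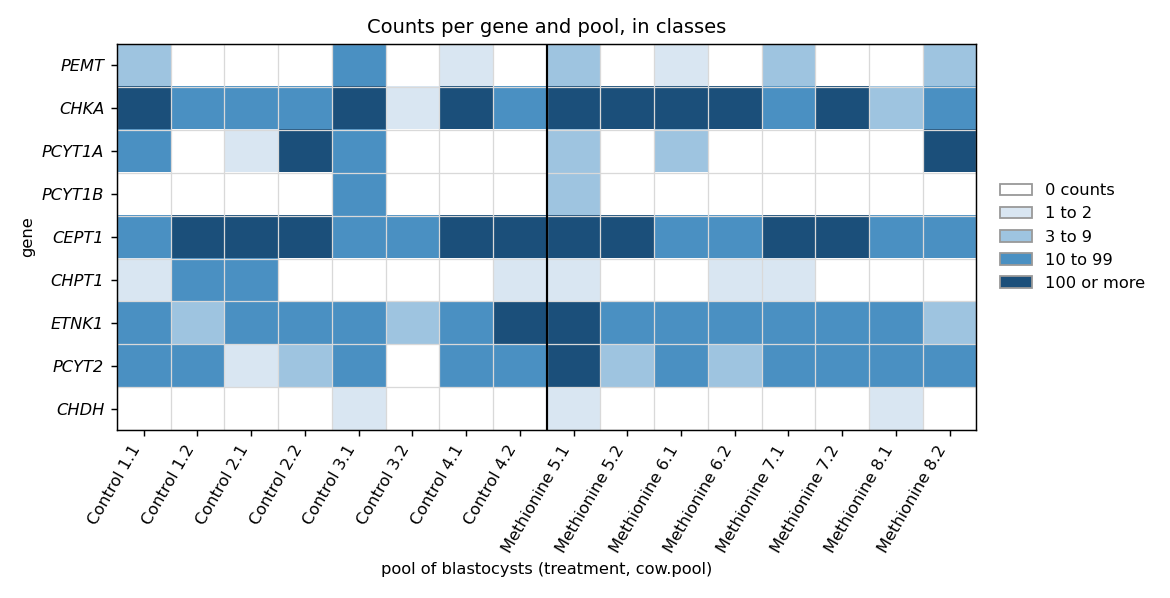
Counts of the 9 listed genes (rows) in each of the 16 pools (columns, control to the left of the line), in 5 classes of count. CHKA, CEPT1, ETNK1 and PCYT2 are filled in all 15 pools of the comparison, whereas PEMT, PCYT1A, PCYT1B, CHPT1 and CHDH are empty in most.

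ETNK1 and PCYT2, of the ethanolamine branch, had counts in all 15 pools. ETNK1, the ethanolamine kinase (XLOC_017850), ranged in control pools from 1.20 CPM in Control 1.2 to 18.6 CPM in Control 4.2, with a median of 3.96. In methionine-rich pools it ranged from 1.08 CPM in Methionine 8.2 to 17.4 CPM in Methionine 5.1, with a median of 8.38, and the ranges overlapped almost wholly. The log2 fold change was 0.59 by edgeR's exact test, with an FDR of 0.998 (0.914 by the quasi-likelihood test). It kept its sign in each fit without 1 cow, from 0.29 to 1.30, and voom with cow as random effect gave 0.83 with an SE of 0.68 (95% interval -0.58 to 2.25). Cow means differed by 0.83 with an SE of 0.65 (exact permutation test, p = 0.257).

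PCYT2, the ethanolamine cytidylyl transferase (XLOC_008319), ranged from 0.356 CPM in Control 2.1 to 10.2 CPM in Control 1.1 among control pools, with a median of 2.29. Among methionine-rich pools it ranged from 0.505 CPM in Methionine 6.2 to 20.8 CPM in Methionine 5.1, with a median of 2.42. The highest 2 methionine-rich values, 20.8 and 9.99 CPM, came from cows 5 and 8, and their other pools had 0.792 and 3.20 CPM. The log2 fold change was 0.42 by edgeR's exact test (FDR = 1, and 0.972 by the quasi-likelihood test), and 0.02 without cow 5. The cow means differed by 0.17 with an SE of 0.58 (exact permutation test, p = 0.829).

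CHDH, the choline dehydrogenase (XLOC_011025), had 4 counts in all, 2 in Control 3.1 and 1 each in Methionine 5.1 and 8.1. No pool reached the floor of 3 counts, so that a difference in CHDH between diets below that floor was not detectable. BHMT, which transfers the methyl group of betaine to homocysteine, had 36 counts over the 15 pools and at least 3 in 2 of them.

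Set out by step, every pool had at least 3 counts of CHKA and of CEPT1, the first and last steps of the CDP-choline route, and 6 pools had all 3 steps. PEMT reached 3 counts in 5 pools, 2 control and 3 methionine-rich. In 4 of these 5 pools, Control 1.1, Control 3.1, Methionine 5.1 and Methionine 8.2, the 3 CDP-choline steps were found too. With any count accepted, PEMT was found in 7 pools and PCYT1A in 7, and 5 pools were shared, 71.4% of each. CHPT1 was also found in 7 pools, of which 3 were shared with PEMT, 42.9% of each. The overlap expected by chance was not computed. The ethanolamine branch had all 3 steps in 14 of 15 pools, the exception being Control 2.1 with 2 counts of PCYT2. Between 4 and 7 of the 9 listed genes reached 3 counts per pool in either treatment, with medians of 5 in control and 4.5 in methionine-rich pools.

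**Figure D3:**
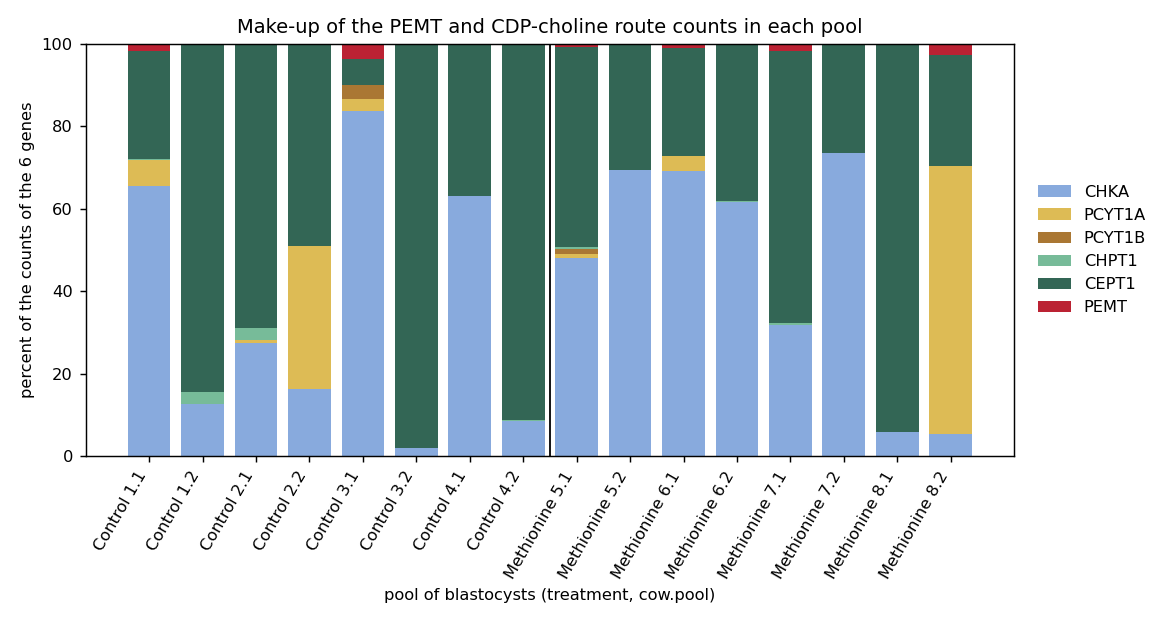
Percent of the summed counts of PEMT and the 5 listed CDP-choline genes taken by each gene (vertical axis, stacked) in each of the 16 pools. Counts are not per transcript length, so the bars compare pools and not genes. CHKA took from 5.25% to 83.7% in the 15 pools compared and PEMT at most 3.52%.

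PEMT was set beside the CDP-choline genes in each pool as the percent of PEMT counts among the counts of PEMT, CHKA, PCYT1A, PCYT1B, CHPT1 and CEPT1. Counts are not per transcript length, and CEPT1 serves both branches. This percent therefore compares pools and does not measure the use of a route. In control pools it ranged from 0% to 3.52%, with a median of 0% and 4 pools at 0. In methionine-rich pools it ranged from 0% to 2.62%, with a median of 0.346% and 4 pools at 0. The means lay in the other order, at 0.771% ± 1.36 (SD, n = 7) in control and 0.754% ± 0.992 (SD, n = 8) in methionine-rich pools. Without cow 2 the control median was 0.220%, and the difference of medians fell from 0.346 to 0.126 percentage points. The highest control share, in Control 3.1, had a 95% Wilson interval from 2.07% to 5.93%, and the highest methionine-rich share, in Methionine 8.2, from 1.34% to 5.09%, and these intervals overlap. Where PEMT was at 0 the route counts allowed a share of up to 0.349% in Methionine 5.2 and up to 4.41% in Methionine 8.1, the deepest and shallowest of these pools for the 6 genes. The intervals cover counting error only, since amplified reads are not independent molecules.

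Within the CDP-choline route the balance between CHKA and CEPT1 varied widely among the pools of both diets. CHKA took between 8.58% and 83.7% of the route counts in control pools (median 27.5%) and between 5.25% and 73.5% in methionine-rich pools (median 54.8%). CEPT1 took between 6.50% and 91.3% in control pools (median 49.1%) and between 26.1% and 94.1% in methionine-rich pools (median 34.2%). The shares overlapped between the diets and were not tested. The highest CHKA share, in Control 3.1, went with the lowest CEPT1 share, and Control 4.2 and Methionine 8.1 lay at the other end, with CEPT1 at 91.3% and 94.1%. The shares of a pool have a fixed sum, so that a high value of 1 gene lowers the others by construction.

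The 2 pools of a cow differed in most of these genes. The median absolute difference on the log2(CPM + 1) scale between the pools of a cow was 1.43 for CHKA, 1.06 for PCYT1A, 0.905 for PCYT2, 0.682 for ETNK1 and 0.331 for CEPT1 (n = 7 cows), against a median of 0.805 over all loci tested. CEPT1 was the most alike within cows of these 5 genes, although cow 1 differed by 1.71. Relative to the mean, the SD between the 15 pools was 87.9% for CHKA and 82.7% for CEPT1, whereas counting alone gives 7.66% and 7.52%. The biological coefficient of variation that edgeR fitted was 0.928 for CHKA, 0.730 for CEPT1, 0.928 for ETNK1, 1.15 for PCYT2 and 2.26 for PCYT1A, against a median of 0.920 over all loci. A count of 3 or more in each of the 15 pools was found for 57.2% of loci tested, and among the 5 tested members for CHKA, CEPT1 and ETNK1.

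None of the 5 tested members was differentially expressed, where a call needed an FDR under 0.1 together with a change of 2-fold or more. By the exact test 1.05% of all loci tested were called, and by the quasi-likelihood test 0%. The count of members called was 0 by every other tool run too, and 1 member, CEPT1, had an unadjusted p under 0.05 by either of the edgeR tests. For none of the 5 did the cow means of the treatments fail to overlap, against 2.29% of all loci tested. The median log2 fold change of the 5 was 0.17, against -0.05 over all loci, with 4 values above 0 and 1 below. These are the members that passed the filter, and over all 9 listed members with no filter except 1 count the median was -0.20, with 4 values above 0 and 5 below.

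**Figure D4:**
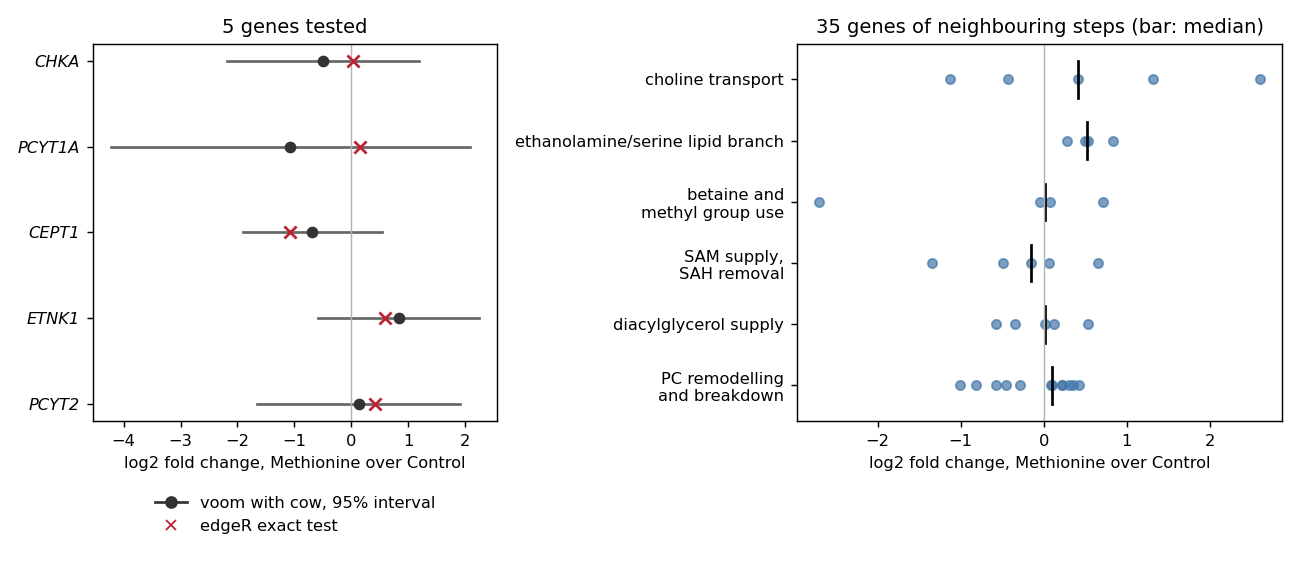
Log2 fold change, methionine-rich over control, on the horizontal axes. Left, the 5 tested members by voom with cow as random effect (points with 95% intervals) and by edgeR's exact test (crosses), where each interval includes 0. Right, the 35 tested genes of neighbouring steps by the exact test, with a bar at each list's median.

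Genes of the neighbouring steps showed the same lack of calls. Of 55 genes in 6 lists, 50 were listed in the files, 35 loci were tested and none was called by edgeR's exact test, against 1.05% of all loci. The quasi-likelihood test also called 0. One locus had an unadjusted p under 0.05 by the exact test, and it was the single such locus by the quasi-likelihood test. The median log2 fold change of the 35 was 0.09, with 21 above 0 and 14 below.

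That locus was SLC25A26, the mitochondrial carrier of SAM, in the list of SAM supply. Control pools held between 6.33 and 34.8 CPM (median 12.2) and methionine-rich pools between 0.954 and 20.7 CPM (median 5.17), and these ranges overlap. Its log2 fold change was -1.35 by edgeR's exact test with an FDR of 0.525, and -1.60 with an SE of 0.62 by voom with cow as random effect (FDR = 0.993). Its cow means differed by -1.20 on the log2(CPM + 1) scale (exact permutation test, p = 0.0857). In the same list MAT2A, which makes SAM outside the liver, had medians of 167 and 148 CPM and a log2 fold change of -0.49 (exact test FDR = 0.816), while the liver form MAT1A had 20 counts in all. The median of the 5 tested genes of this list was -0.15.

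Among choline carriers, SLC44A1, a choline transporter-like protein, had 3 or more counts in all 15 pools, as did SLC44A2 of the same family. SLC44A1 had medians of 84.7 CPM in control and 52.5 CPM in methionine-rich pools (log2 fold change -0.43, exact test FDR = 0.998). SLC44A3, of the same family, had the widest difference of this list, 2.61, but 58.4% of its counts lay in Methionine 7.1 (exact test FDR = 0.738). Of the 8 genes, 5 were tested and 0 called, and the high-affinity neuronal transporter SLC5A7 had 10 counts in all.

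In the ethanolamine and serine branch, PISD, the mitochondrial decarboxylase that makes phosphatidylethanolamine from phosphatidylserine, had medians of 52.8 CPM in control and 101 CPM in methionine-rich pools and a log2 fold change of 0.28 (exact test FDR = 1). ETNK2, the second ethanolamine kinase, had medians of 3.56 and 8.98 CPM and a log2 fold change of 0.83 (exact test FDR = 0.967). All 4 tested genes of this list had values above 0 by the exact test, with a median of 0.52 and 0 calls. By voom with cow as random effect PISD was -0.075 with an SE of 0.66, and the others stayed above 0.

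Betaine and methyl group use was represented by ALDH7A1, which can oxidize betaine aldehyde, with medians of 570 and 625.2 CPM and a log2 fold change of 0.07 (exact test FDR = 1). DMGDH, which acts on dimethylglycine, had its counts almost wholly in 2 pools, with 155 in Control 4.1 and 35 in Methionine 6.1, and a log2 fold change of -2.71 (exact test FDR = 0.94). The list had 4 tested genes, 0 calls and a median of 0.01. Diacylglycerol supply had 5 tested genes, 0 calls and a median of 0.01. Its AGPAT5, an acyltransferase, had medians of 939 and 1164 CPM and a log2 fold change of 0.01, and AGPAT2 had medians of 3.71 and 1.83 CPM and a log2 fold change of -0.57 (exact test FDR = 1 for both). Among genes of phosphatidylcholine remodelling, transfer and breakdown, 12 were tested and 0 called, with a median of 0.10. STARD7, a carrier of phosphatidylcholine to mitochondria, had medians of 500.0 and 524 CPM and a log2 fold change of 0.22, and LCAT, the plasma acyltransferase, had 2.64 and 2.46 CPM and -1.01 (exact test FDR = 1 and 0.92).

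CEPT1 alone had at least 10 counts in each of the 15 pools, so it alone was compared in pattern with the other 10518 loci tested. The 2 loci most alike by Pearson correlation of log2(CPM + 1) over the 15 pools were KIAA1468 (r = 0.873) and TIPRL (r = 0.856). The points share library, depth and cow, and these were the highest of a large number of correlations.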

How the data were processed

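RNA-seq of 16 pools of bovine blastocysts was used. The authors mapped reads to bosTau7 with TopHat2 2.0.4, assembled transcripts with Cufflinks 2.0.2 and obtained gene counts from htseq-count, with no strand setting stated. Deposited values are counts, which are whole numbers per locus without normalization. Each of 22358 loci was entered once, and CPM are counts over the pool total. The main test followed the study's methods, which also leave out pool Control 3.2, as edgeR's exact test on 15 pools (summed CPM of at least 15, TMM, tagwise dispersions, Benjamini-Hochberg adjustment over all 10519 loci, called at FDR under 0.1 and 2-fold). The quasi-likelihood test, DESeq2 and limma's voom (cow as random effect) were run beside it, since the exact test takes the 2 pools of a cow as independent. The study reports more genes called than the 110 loci that the exact test called here, and the cause was not tested. Cow means of log2(CPM + 1) were compared by exact permutation tests over 70 assignments. The permutation p-values were not adjusted. Versions were edgeR 4.0.16, limma 3.58.1, DESeq2 1.42.0 and R 4.3.3. Code was tested on simulated data. No pools were found to be 1 library deposited more than once (smallest chi-square per degree of freedom 51.0).

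Totals of 5624126 to 7826542 counts put 3 counts at 0.383 to 0.533 CPM. The members and lists were chosen with earlier results of these data known. Named genes were all members and, of each list, the tested gene with the highest mean CPM and that with the largest absolute log2 fold change. BHMT, MAT1A, SLC44A2 and SLC5A7 were named outside this rule, after their values were seen. Of the marker lists, the trophectoderm genes summed to between 3072 and 9681 CPM, the cumulus and granulosa genes to between 2.38 and 58.1 CPM, the uterine genes to between 2.51 and 137 CPM, the inner cell mass genes to between 140 and 1795 CPM and the hypoblast genes to between 93.7 and 336 CPM over the 15 pools. Transcript lengths and sequences for these loci were not used here, so levels were not compared between genes. The libraries were multiplexed over 2 sequencing lanes, and which pool ran in which lane is not given in the sources used here. One marker gene is not reported here.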

Additional observations from a re-analysis of the deposited data

Results flagged for a closer look

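In a group of 4 to 10 pools a value was singled out by its gap to the next value, over the range of the group. The gap had to pass Dixon's 95% critical value. That value is set for normally distributed values, and these CPM were often 0, so no rate of passing by chance is given. A group with a single pool above 0 passes by construction, as did PCYT1B in both treatments and CHDH in control pools. PEMT in Methionine 8.2 was at 1.08 CPM against 0.413 in the next pool. PCYT1A was at 22.6 CPM in Control 2.2 against 3.03, and at 26.9 CPM in Methionine 8.2 against 1.09. PCYT1B was at 1.62 CPM in Control 3.1 and 0.827 CPM in Methionine 5.1, with 0 in the other pools of each treatment. ETNK1 was at 18.6 CPM in Control 4.2 against 7.74, and PCYT2 at 20.8 CPM in Methionine 5.1 against 9.99. CHDH was at 0.269 CPM, or 2 counts, in Control 3.1 and at 0 in the other control pools.

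Pool Control 3.2, which entered no main comparison, held 4 of the 12 named neighbouring genes above each of the other 7 control pools, and the remaining neighbouring genes were not compared in this way. The share of all loci that lie above the other control pools there was not computed, so the count describes the pool and not these genes. ETNK2 had 588 counts there, or 337 CPM, against at most 9.90. AGPAT5 had 2869 CPM against at most 2054, STARD7 had 922 against at most 864, and PISD had 205 against at most 175. The paper describes unexpectedly many reads of this pool in introns and between genes. The part of that fault in these values was not tested.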

How the results depend on the processing

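The numbers of members and of neighbouring genes called were 0 under all 19 alternatives each, covering the tools, normalization, filter, pools left out and each cow left out. Over all loci, 110 were called by the exact test, against 67 by DESeq2, 0 by voom and by the quasi-likelihood test, 55 with no filter except 1 count, 0 where every pool needed 10 counts, 64 without pool Control 2.1, 356 with all 16 pools, and 62 to 153 with each cow left out. The log2 fold changes of CEPT1, ETNK1 and PCYT2 kept their sign under every alternative that gave one, and those of CHKA and PCYT1A did not. CHKA was -0.496 by voom with cow as random effect, -0.0879 with the pools of a cow summed, -0.0135 without pool Control 2.1, and -0.046, -0.187 and -0.568 without cows 1, 2 and 5, in a range up to 0.436. PCYT1A was -1.75 by DESeq2, -1.07 by voom, -0.137 with the pool total alone as normalization, and -0.0469, -0.318 and -3.67 without cows 1, 4 and 8, in a range up to 2.01. The median over the members tested was -0.496 by voom, -1.09 where every pool needed 10 counts and CEPT1 alone remained, -0.198 over all 9 listed members with no filter except 1 count, and -0.046 (without cow 1) to 0.628 with each cow left out. The difference of median PEMT shares, 0.346 percentage points, was 0.126 without cow 2 and at most 0.459, without cow 5. Cow mean differences turned with all 16 pools for CHKA (0.0732) and CHDH (0.0038). They also turned without cow 2 for PCYT1A (0.0397) and PCYT2 (-0.174), without cow 3 for PEMT (0.12), PCYT1B (0.109) and CHDH (0.0468), without cow 4 for CEPT1 (0.0344), without cow 5 for PCYT2 (-0.0344), and without cow 8 for CHKA (0.387) and PCYT2 (-0.0746). The cause was not tested. No paired analysis was possible because the cows of the treatments differ and share no numbers. Low counts limit PEMT, PCYT1B, CHPT1 and CHDH, each of which had fewer than 3 counts in at least 10 of the 15 pools. PCYT1A had fewer than 3 counts in 9 of them. The part of depth in these low counts was not tested.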
